A study of Canis lupus familiaris with 28 samples.

Results

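Integrins and laminins are the receptors and the ligands by which cells hold on to a basement membrane. The chains of both families were followed in formalin-fixed, paraffin-embedded (FFPE) biopsies of primary canine oral malignant melanomas (OMMs), a tumour of pigment cells of the mouth. The members were all genes whose symbol in the array annotation is that of an integrin alpha chain, an integrin beta chain or a laminin chain, and where several Transcript clusters (sets of probes along 1 transcribed locus) carried the symbol, the one with the highest mean was read. The rule found 35 genes in 39 Transcript clusters, of 16295 genes with a symbol of their own and 32391 Transcript clusters in all. They are 18 integrin alpha chains, 7 integrin beta chains and 10 laminin chains. No Transcript cluster carried the symbol of the integrin chain ITGB2 alone, and LAMB2 was named only on a Transcript cluster shared with USP19, so these chains were not analysed here.

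The tumours came from 28 pet dogs with 1 array each, 18 from dogs that died of the metastasised tumour (M OMMs) and 10 from dogs that were still alive long after surgery (NM OMMs). Golden Retrievers bore 8 of them (4 M and 4 NM), Labrador Retrievers 5 (3 M and 2 NM), cross breed dogs 7 (6 M and 1 NM) and other purebred dogs 8, whose breeds were all in 1 group only. Dogs with M OMMs had presented at later clinical stages than most dogs with NM OMMs, so metastatic status cannot be told apart from stage. The labels give neither age nor sex, and no normal oral tissue was among the samples.

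An integrin is a pair of 1 alpha and 1 beta chain that spans the cell membrane, binds matrix proteins or other cells outside and links to the actin skeleton inside through adaptors such as talin and kindlin. ITGB1 is the beta chain shared by most alpha chains, ITGAV pairs with several beta chains to bind fibronectin and vitronectin and to release active TGF-beta, and ITGB2 and ITGB7 belong to leukocytes. A laminin is a trimer of 1 alpha, 1 beta and 1 gamma chain that polymerises into the basement membrane, where the alpha chain sets the tissue: LAMA2 in muscle and nerve, LAMA3 in stratified epithelium, LAMA4 and LAMA5 in vessels. In human melanoma, integrins of the ITGAV and ITGB1 classes are studied for their part in invasion.

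Values are log2 signals made by the authors with the RMA algorithm, and 74.2% of all Transcript clusters had a mean under 2, so most signals lie close to the floor of the array. The median of the means was 1.621. The number of arrays limits the precision, and a gene with a dim signal may be expressed below what these arrays resolve. The arrays also differed along 1 axis, the first principal component of all Transcript clusters, which held 34.9% of the variance. Along it the cross breed OMMs lay between -93.2 and -37.5, the Golden Retriever OMMs between -22.5 and 89.2 with a median of 69.1, and the share of Transcript clusters above a log2 value of 4 ran from 4.30% to 4.91% in the former and from 4.87% to 6.40% in the latter. Of 10 pigment cell markers, PMEL, DCT, MITF and SOX10 had means of 4.07, 3.52, 3.19 and 3.14 over the 28 OMMs, while TYR and SLC45A2 had 1.79 and 1.77, near the level of most Transcript clusters.

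Of the 35 chains, 9 had a mean over the 28 OMMs above a log2 value of 2. They were the integrin chains ITGB1, ITGA6, ITGAV and ITGAX and the laminin chains LAMA2, LAMA3, LAMA4, LAMA5 and LAMC1. The other 26 had means from 1.32 to 1.97, and 5 of these, ITGA3, ITGA4, LAMA1, LAMB1 and LAMB4, are described with the first 9 because they passed the test in a breed comparison. LAMA2 varied most widely against other Transcript clusters, with an SD of 1.23 log2 units over the 28 OMMs, above that of 97.2% of all Transcript clusters. ITGA6 (SD 0.87), ITGAV (0.72), ITGB1 (0.67) and LAMC1 (0.63) had a spread above that of 93.1%, 89.5%, 87.7% and 86.4% of Transcript clusters in that order. LAMA1, by contrast, had an SD of 0.13, which 3.56% of Transcript clusters undercut.

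ITGB1 had values that fell into 2 sets with a gap between them. In 18 OMMs its log2 value was 2.08 to 2.64 and in the other 10 it was 3.17 to 3.99. The upper set held 7 M and 3 NM OMMs, of which 6 were from Golden Retrievers and 4 from other purebred dogs. No OMM of a cross breed dog or a Labrador Retriever lay in it. ITGB1 followed the first component (r = 0.83), which was -4.99 or higher in the upper set and 29.4 or lower in the lower set. LAMA2 showed a gap of the same kind, with 24 OMMs at 1.55 to 3.44 and 4 OMMs at 5.12 to 5.76. Those 4 were 1 M OMM of a Dachshund and 3 NM OMMs, 2 from Golden Retrievers and 1 from a Labrador Retriever. These sets were seen in the data and are no groups of the study. The part of RNA integrity in them was not tested.

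**Figure D1:**
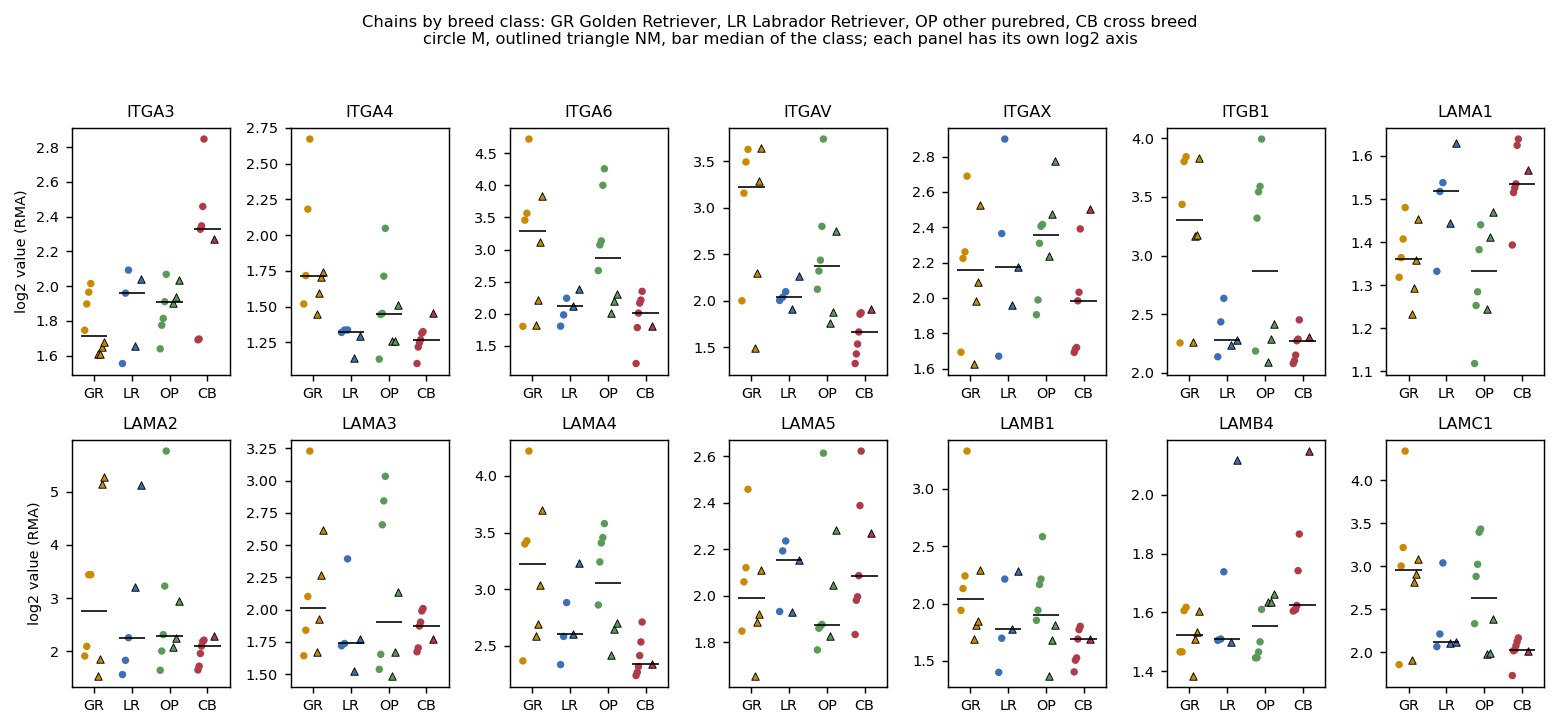
Log2 value of 14 chains in each of 28 OMMs (1 panel per chain, each with its own axis) by breed class, with circles for M OMMs, outlined triangles for NM OMMs and a bar at the class median. Cross breed OMMs sit at 1.33 to 1.91 for ITGAV and at 2.24 to 2.71 for LAMA4, and 10 OMMs of Golden Retrievers and other purebred dogs sit above the gap of ITGB1.

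Whether any chain differed with metastasis was asked first. No chain passed the test between M and NM OMMs: limma gave 0 of 35 with an adjusted p under 0.05, as for 0% of all Transcript clusters, and 0 of 35 with an unadjusted p under 0.05, where the share over all Transcript clusters was 2.55%. The methods' t-test gave 0 of 35 after the adjustment used here and also 0 unadjusted. The paper adjusted by permutation testing over detected Transcript clusters only, and reported Transcript clusters that differed between M and NM OMMs. That adjustment and that filter were not repeated here. The differences, M minus NM on the log2 scale, were above 0 for 24 of 35 chains with a median of 0.059, against a median of 0.00072 and 50.4% above 0 over all Transcript clusters. Of the markers of other cell types, 4 of 11 for fibroblasts, 5 of 14 for leukocytes and 4 of 15 for oral epithelium had a higher mean in M than in NM OMMs. So did 5 of 13 for endothelial cells, 0 of 11 for skeletal muscle, 2 of 5 for Schwann cells, 1 of 3 for platelets and 6 of 10 for pigment cells. The muscle list had median means of 1.68 in M and 1.72 in NM OMMs, and its highest mean, 4.86, was in the Great Dane NM OMM. The part of these cell types in the differences was not tested. In bulk tissue, fewer cells of a type and less RNA per cell cannot be told apart.

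Among the receptors, ITGB1 was 2.08, 2.44 and 3.99 (lowest, median and highest of 18) in M OMMs and 2.10, 2.30 and 3.83 (of 10) in NM OMMs. The ranges covered each other nearly whole, and the difference was 0.20 ± 0.26 (SE, limma). ITGA6, which pairs with ITGB1 or ITGB4 into a laminin receptor, was 1.23, 2.30 and 4.72 in M OMMs against 1.80, 2.21 and 3.83 in NM OMMs, a difference of 0.31 ± 0.33 with a 95% interval of -0.37 to 0.99. ITGAV was 1.33, 2.07 and 3.74 in M OMMs and 1.50, 2.09 and 3.65 in NM OMMs, a difference of -0.016 ± 0.28. The 95% interval for ITGAV was -0.59 to 0.56. ITGAX, the alpha chain of a receptor of dendritic cells and macrophages, was 1.67, 2.13 and 2.90 against 1.63, 2.21 and 2.77 (difference -0.10 ± 0.14). ITGA3, a laminin receptor chain, was 1.55, 1.94 and 2.85 against 1.61, 1.79 and 2.27 (0.15 ± 0.12). ITGA4, which binds VCAM1 and fibronectin, was 1.10, 1.34 and 2.67 against 1.14, 1.45 and 1.74 (0.077 ± 0.14). All of these ranges overlapped between M and NM OMMs.

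ITGB3, which pairs with ITGAV and, on platelets, with ITGA2B, had the smallest unadjusted p of the 35 and is named for that after its values were seen. It was 1.39, 1.68 and 2.53 in M OMMs and 1.32, 1.54 and 1.73 in NM OMMs, and the M OMM was the higher in 70.6% of all M to NM pairings. The difference was 0.20 ± 0.10, with an unadjusted p of 0.0521 and an adjusted p of 1 from limma, and a permutation test on this chain alone gave p = 0.0476 (two-sided, 100000 resamples). ITGB7, ITGB8, ITGB4, ITGB5 and ITGB6 differed by -0.10, -0.07, 0.13, 0.15 and -0.015. The remaining alpha chains, ITGA1, ITGA2, ITGA2B, ITGA5, ITGA7, ITGA8, ITGA9, ITGA10, ITGA11, ITGAD, ITGAE, ITGAL and ITGAM, lay between -0.10 for ITGAD and 0.13 for ITGA1.

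Among the laminins, LAMA2 had the widest difference. Its values were 1.57, 2.10 and 5.76 in M OMMs and 1.55, 2.62 and 5.27 in NM OMMs. Both groups held OMMs above 5 and OMMs under 1.6. The difference was -0.77 ± 0.45, with a 95% interval of -1.69 to 0.16, an unadjusted p of 0.101 from limma and p = 0.1195 in the permutation test. Without the Dachshund M OMM (replicate 1) it was -0.96 with an unadjusted p of 0.0182, and without the Golden Retriever NM OMM with the lowest value (replicate 9) it was -0.95 with p = 0.0481. Without the Golden Retriever NM OMM of replicate 2 it was -0.53 with p = 0.240, the highest of the 28. A second Transcript cluster of LAMA2, whose values followed the first with r = 0.68 across OMMs, had a difference of 0.08 (limma, unadjusted p = 0.533). Its mean was 1.54, close to the floor of the array, so the negative difference was seen in the brighter Transcript cluster only. LAMC3 differed by -0.18 ± 0.09 (unadjusted p = 0.0659), and it is also named after its values were seen.

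LAMA4, the alpha chain of vessel laminins, was 2.24, 2.79 and 4.22 in M OMMs and 2.34, 2.67 and 3.70 in NM OMMs, a difference of 0.11 ± 0.20. LAMC1, the gamma chain of most laminins, was 1.73, 2.27 and 4.34 against 1.90, 2.11 and 3.08 (0.28 ± 0.24). Both pairs of ranges overlapped. LAMA3, whose trimer anchors hemidesmosomes, was 1.54, 1.89 and 3.23 against 1.49, 1.77 and 2.62 (0.20 ± 0.18), and LAMA5 was 1.77, 2.03 and 2.62 against 1.66, 1.99 and 2.28 (0.088 ± 0.098). Of the 2 other Transcript clusters of LAMA5 both had a difference of -0.09, with r = 0.32 and 0.61 to the one read here. LAMB1 was 1.40, 1.90 and 3.33 against 1.37, 1.80 and 2.29 (0.14 ± 0.16), and LAMB4, LAMA1 and LAMB3 differed by -0.09, 0.016 and 0.12, again with overlapping ranges.

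**Figure D2:**
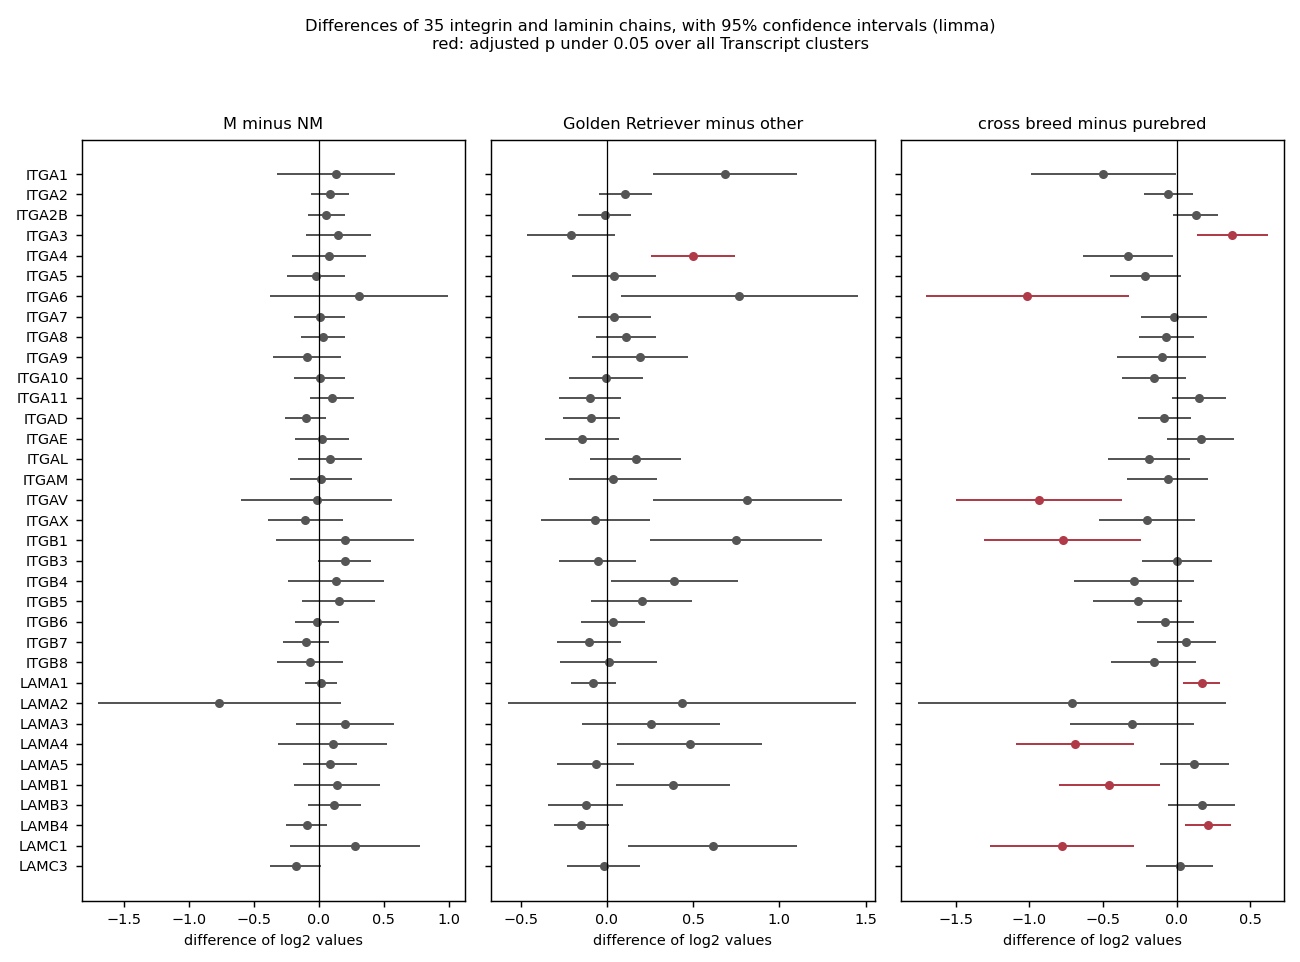
Differences of log2 values with 95% confidence intervals from limma for 35 chains, M minus NM (left), Golden Retriever minus other (middle) and cross breed minus purebred (right), the last 2 with metastatic status in the model. Red marks an adjusted p under 0.05: no chain on the left, ITGA4 in the middle and 9 chains on the right.

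The chains were then compared by breed. Between 7 cross breed and 21 purebred OMMs, with metastatic status in the model, 9 of 35 chains (25.7%) had an adjusted p under 0.05, where 19.4% of all Transcript clusters did. Lower in cross breed OMMs were 6 chains, ITGAV, ITGB1, ITGA6, LAMA4, LAMC1 and LAMB1, at a background of 5.15% of all Transcript clusters lower. Higher were 3, ITGA3, LAMB4 and LAMA1, where 14.2% of all Transcript clusters were higher. The median difference was -0.099 over the 35 chains and 0.083 over all Transcript clusters. Cross breed OMMs also had low values of the first component and of the share above 4, as given above. Their array medians were 1.60 to 1.66 against 1.51 to 1.60 in Golden Retriever OMMs. The part of that axis in these differences cannot be told apart from breed. RNA integrity, measured by the authors for each dog, was poorer in every cross breed dog than in most Golden Retrievers. The labels do not join OMMs to those dogs, so RNA integrity was not in the models. In either comparison by breed, its part cannot be told apart from breed.

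ITGAV was 1.33, 1.66 and 1.91 (lowest, median and highest of 7) in cross breed OMMs and 1.50, 2.29 and 3.74 (of 21) in purebred OMMs. It was higher in the cross breed OMM in only 6.80% of the pairs of 1 cross breed and 1 purebred OMM. The difference was -0.93 ± 0.27 (adjusted p = 0.0201). LAMA4 was 2.24, 2.34 and 2.71 against 2.34, 2.88 and 4.22, a difference of -0.69 ± 0.19 (adjusted p = 0.0163), and LAMC1 was 1.73, 2.02 and 2.16 against 1.85, 2.82 and 4.34 (-0.78 ± 0.24, adjusted p = 0.0234). These 3 chains kept an adjusted p under 0.05 whichever of the 28 OMMs was left out. In each, the highest cross breed value lay under the purebred median.

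ITGB1 (2.08, 2.27 and 2.45 against 2.10, 2.64 and 3.99) and ITGA6 (1.23, 2.01 and 2.35 against 1.80, 2.38 and 4.72) differed by -0.78 ± 0.26 and -1.02 ± 0.33, with adjusted p-values of 0.0362 and 0.0343. LAMB1, the beta chain that joins LAMA4 and LAMC1 in vessel laminin, was 1.40, 1.69 and 1.80 against 1.37, 1.94 and 3.33 (-0.46 ± 0.16, adjusted p = 0.0488). Leaving out 1 OMM ended the call for ITGB1 with 11 of the 28 OMMs, for ITGA6 with 4 and for LAMB1 with 21. The highest adjusted p-values were 0.0651, 0.0859 and 0.0889, reached without the cross breed M OMMs of replicate 11, 17 and 4 in that order. The OMMs that ended the call for ITGA6 were the M OMMs of the Bullmastiff, of Golden Retriever replicate 10 and of cross breed replicates 11 and 17. The direction was the same each time.

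ITGA3 went the other way. It was 1.69, 2.33 and 2.85 in cross breed OMMs and 1.55, 1.90 and 2.09 in purebred OMMs, and 5 of the 7 cross breed OMMs lay above every purebred OMM. The difference was 0.38 ± 0.11 (adjusted p = 0.0233), and it lost the call without 1 of 3 cross breed OMMs, the M replicates 4 and 17 and the NM replicate 10, with an adjusted p of up to 0.0625. LAMB4 (1.60, 1.62 and 2.15 against 1.39, 1.51 and 2.12) and LAMA1 (1.39, 1.54 and 1.64 against 1.12, 1.38 and 1.63) differed by 0.21 ± 0.07 and 0.17 ± 0.06, with adjusted p-values of 0.0415 and 0.0415. LAMB4 lost the call without any 1 of 9 OMMs (adjusted p up to 0.180) and LAMA1 without any 1 of 12 (up to 0.0847). With the arrays centred on their medians, the adjusted p-values of LAMB4, LAMA1 and ITGA3 were 0.147, 0.180 and 0.0658.

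Since 6 of the 7 cross breed OMMs were M, the comparison was repeated within the M OMMs, 6 cross breed against 12 purebred, after the first result had been seen. All 9 chains kept their direction, but they had been picked on OMMs that include these, so this is no separate support. Of all 35 chains 4 had an adjusted p under 0.05, where 14.3% of all Transcript clusters did. They were ITGAV (-1.04 ± 0.27), LAMA4 (-0.73 ± 0.22), LAMC1 (-0.88 ± 0.28) and ITGB1 (-0.87 ± 0.28), with adjusted p-values of 0.0211, 0.0377, 0.0422 and 0.0458. With the first component as a covariate none of the 9 kept an adjusted p under 0.05. ITGAV, ITGA6 and ITGB1 then had differences of 0.12, 0.27 and 0.17, on the other side of 0, while LAMA4, LAMC1 and LAMB1 had -0.08, -0.013 and -0.20. ITGA3 had 0.33, LAMB4 0.11 and LAMA1 0.038, so ITGA3 was close to its difference without the covariate, 0.38.

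Marker lists of several cell types also differed in level by breed. In cross breed OMMs 0 of 11 fibroblast, 4 of 15 epithelial, 1 of 10 pigment cell, 1 of 14 leukocyte and 3 of 13 endothelial markers had a higher mean than in purebred OMMs. So did 5 of 11 muscle, 2 of 5 Schwann cell and 2 of 3 platelet markers. Over all Transcript clusters, with metastatic status in the model, 63.9% had a difference above 0. The fibroblast list had a mean log2 value of 2.22 to 2.57 against 2.21 to 4.57. In Golden Retriever OMMs 11 of 11 fibroblast, 12 of 15 epithelial, 9 of 10 pigment cell, 12 of 14 leukocyte and 8 of 13 endothelial markers had a higher mean than in the other OMMs. So did 3 of 11 muscle, 3 of 5 Schwann cell and 1 of 3 platelet markers, where 36.5% of all Transcript clusters had a difference above 0. The epithelial list had a mean log2 value of 1.55 to 4.08 against 1.48 to 3.26. The part of these cell types in the breed differences of the chains was not tested.

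Golden Retriever OMMs differed from the other 20 in 1 chain at an adjusted p under 0.05, where 1.45% of all Transcript clusters were higher and 1.09% lower. This was ITGA4, which was 1.45, 1.71 and 2.67 in Golden Retriever OMMs and 1.10, 1.32 and 2.05 in the others. The Golden Retriever OMM was the higher in 91.9% of pairs, and the difference was 0.50 ± 0.12 (adjusted p = 0.0387). The 2 highest values, 2.67 and 2.18, were M OMMs of Golden Retrievers. The call was lost when any 1 of 16 OMMs was left out, with an adjusted p of up to 0.129 and a difference of 0.37 without the M OMM of replicate 10. With the first component as a covariate the difference was 0.30, with an adjusted p of 0.9997. Within M OMMs the difference was 0.65 ± 0.17 (4 against 14) and within NM OMMs 0.30 ± 0.10 (4 against 6), with adjusted p-values of 0.237 and 0.320, where 0.034% and 0.00309% of all Transcript clusters were called.

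At an unadjusted p under 0.05, 9 of 35 chains were higher in Golden Retriever OMMs, where 11.5% of all Transcript clusters were. They were ITGA4, ITGA1, ITGAV, ITGB1, LAMC1, LAMB1, LAMA4, ITGA6 and ITGB4. At any p, 21 of 35 chains had a difference above 0, against 36.5% of all Transcript clusters. ITGAV differed by 0.82 ± 0.26 and ITGB1 by 0.75 ± 0.24, both with an adjusted p of 0.066. ITGA1, a collagen receptor, differed by 0.69 ± 0.20 with an adjusted p of 0.0544. The ranges overlapped to different degrees. ITGAV was 1.50 in 1 Golden Retriever NM OMM and 3.65 in another, while the lowest Golden Retriever value of ITGA1, 1.46, lay above the median of the others, 1.38, and the Golden Retriever OMM was the higher in 90% of pairs. The comparisons of Golden Retriever with other and of cross breed with purebred OMMs share samples, since all cross breed OMMs are among the 20 others.

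The M minus NM difference was set against breed by an interaction term. No chain had a different M minus NM value in Golden Retrievers than in the other dogs at an adjusted p under 0.05 (limma, 0% of all Transcript clusters) or at an unadjusted p under 0.05 (3.07% of all). The smallest unadjusted p was 0.0727, for ITGA7, a laminin receptor chain of muscle, whose M minus NM difference was 0.26 in Golden Retrievers and -0.10 in the others. For LAMA2 the 2 values were -0.73 and -0.67, and for ITGAV 0.39 and 0.006.

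The chains followed the first component unequally. Of the 9 chains with a mean above 2, 8 had a positive Pearson r with the first component and their median r was 0.78, where all 8364 Transcript clusters with such a mean had a median r of 0.010 and 50.2% were positive. ITGAV had r = 0.88, ITGA6 0.85, ITGB1 0.83, LAMA4 0.79, LAMC1 0.78, LAMA3 0.63, LAMA2 0.48 and ITGAX 0.21, and LAMA5 had -0.43. Of the 26 dimmer chains 16 were positive with a median r of 0.088, where the 24027 dimmer Transcript clusters had a median of -0.31. LAMA1 (-0.72), LAMB3 (-0.70), LAMB4 (-0.54) and ITGAE (-0.53) were at the other end. The component was computed from these same arrays, so r describes the chains and carries no test.

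**Figure D3:**
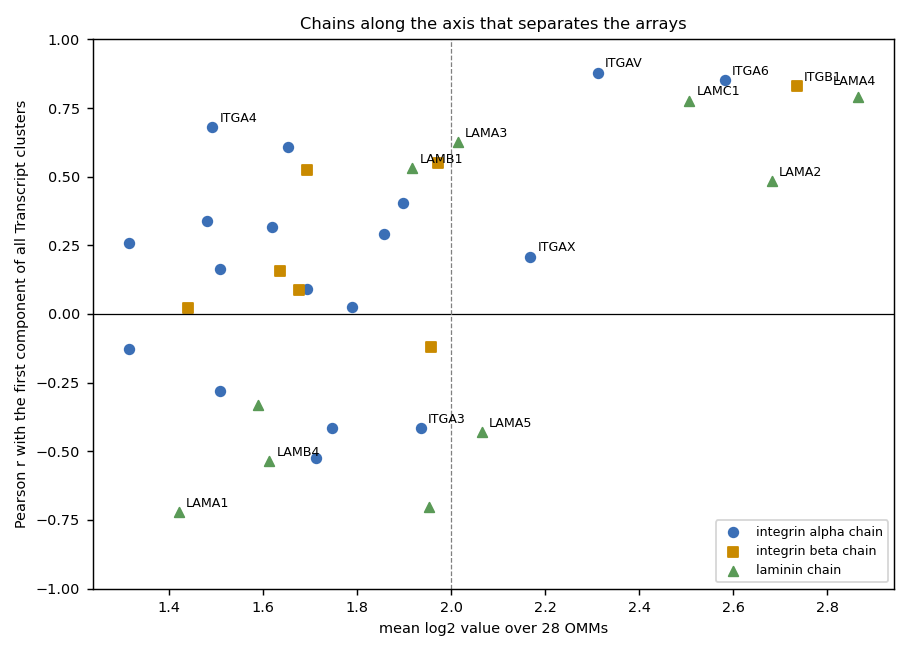
Pearson r of each of 35 chains with the first principal component of all Transcript clusters (vertical axis) against its mean log2 value over 28 OMMs (horizontal axis), the dashed line at a log2 value of 2. Right of the line 8 of 9 chains lie above 0 and LAMA5 lies at -0.43.

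Chains that assemble with each other were then correlated across the 28 OMMs. Of 39 known pairs, 30 had both chains measured, and 12 had an adjusted p under 0.05 (Pearson, permutation with 100000 resamples, adjusted over the 30), 11 with a positive and 1 with a negative r. The median r was 0.26 over partner pairs and 0.024 over the 565 other pairs of members. Pairs with a common chain share its values, and both medians are descriptions.

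The 12 pairs with ITGB1 were read within its sets because of its gap. Over all OMMs 5 of them, with ITGA1, ITGA2, ITGA4, ITGA6 and ITGAV, had an adjusted p under 0.05. A split on ITGB1 narrows its range and so lowers r within the sets. Within the 18 OMMs of the lower set, r ran from -0.084 to 0.33 over the 12 partners and the smallest unadjusted permutation p was 0.178. Within the 10 OMMs of the upper set r ran from -0.23 to 0.67, with 1 unadjusted permutation p under 0.05, for ITGA10 (0.0344). ITGA6 had r = 0.14 in the lower and 0.55 in the upper set, and ITGAV 0.26 and 0.50. ITGA7 had 0.33 and 0.39 (unadjusted permutation p = 0.178 and 0.262), but -0.075 over all 28 OMMs. It was 1 of several partners with a positive r in both sets.

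The 18 other pairs held 7 with an adjusted p under 0.05. LAMA4 and LAMC1, chains of the same vessel laminin, had r = 0.82 (adjusted p = 0.0001, rho = 0.66, rho adjusted p = 0.00168), and LAMA4 and LAMB1 had r = 0.73 (adjusted p = 0.00015, rho = 0.57, rho adjusted p = 0.00801). Without the 2 OMMs farthest from the median of LAMA4, r was 0.74 and 0.57. Within Golden Retriever OMMs (n = 8) r was 0.88 and 0.84, within the 13 other purebred and Labrador Retriever OMMs 0.65 and 0.45, and within cross breed OMMs (n = 7) -0.39 and -0.13. LAMB1 with LAMC1 had r = 0.68 (adjusted p = 0.0009, rho = 0.52, rho adjusted p = 0.0187) and fell to 0.38 (adjusted p = 0.139) without the 2 OMMs farthest from the median of LAMB1, so the size of r rests on those OMMs, while the rank correlation over all 28 passed. Centred within breed class, r was 0.57 (adjusted p = 0.0093). Within Golden Retriever, other purebred and Labrador Retriever, and cross breed OMMs it was 0.80, 0.33 and -0.20. In all 3 pairs r was highest in Golden Retriever and below 0 in cross breed OMMs, and that difference was not tested.

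Of the receptors, ITGAV with ITGB5, which bind vitronectin together, had r = 0.69 (adjusted p = 0.00015, rho = 0.66, rho adjusted p = 0.00168). Within the breed classes it was 0.74, 0.65 and 0.55 in the same order, and without the 2 farthest OMMs 0.64. ITGAV had r = 0.049 with ITGB3, 0.24 with ITGB6 and 0.033 with ITGB8, its other partners besides ITGB1, with adjusted p-values from 0.290 to 0.870. ITGA6 with ITGB4, the hemidesmosome receptor, had r = 0.67 (adjusted p = 0.0009, rho = 0.44, rho adjusted p = 0.0573), but 0.45 without the 2 farthest OMMs (adjusted p = 0.0757) and -0.18 within cross breed OMMs, so it rests on those OMMs. Centred within breed class it was 0.67 (adjusted p = 0.00042). For LAMA2, whose values have a gap, r was taken among the 24 OMMs below it, and was 0.47 with LAMB1 and 0.46 with LAMC1 (unadjusted permutation p = 0.0194 and 0.0219). The chains of epithelial laminin, LAMA3 and LAMB3, had r = -0.43 (adjusted p = 0.0502, rho = -0.35), and LAMA1 with LAMC1 had r = -0.63 (adjusted p = 0.001, rho = -0.69, rho adjusted p = 0.0007).

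After the first component was removed from both chains by regression, 4 of the 30 pairs had an adjusted p under 0.05, each of 0.0285, and all 4 were among the 12. They were LAMA4 with LAMB1 (r = 0.60), LAMA4 with LAMC1 (0.54), ITGAV with ITGB5 (0.53) and ITGA6 with ITGB1, in whose values the gap remains. LAMA1 with LAMC1 had -0.16 and LAMA3 with LAMB3 0.023. The median residual r was 0.20 over partner pairs and 0.043 over other pairs.

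**Figure D4:**
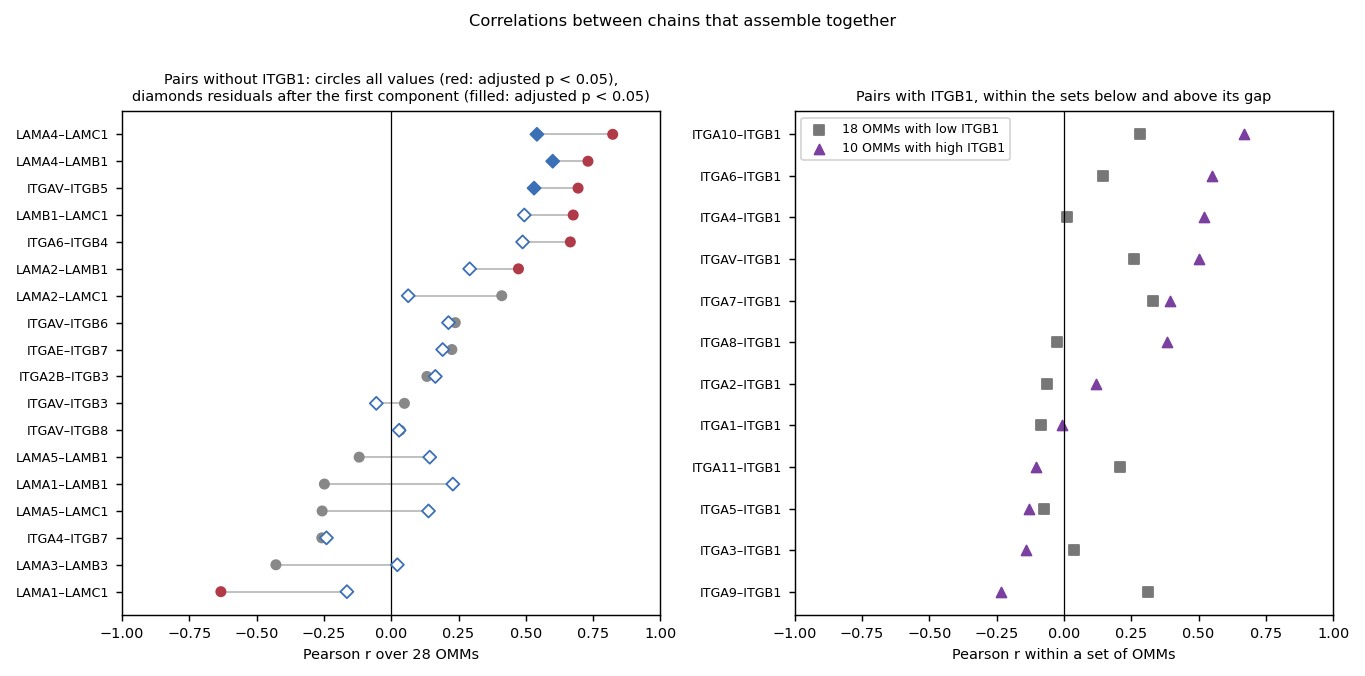
Pearson r between chains that assemble together: left, 18 pairs without ITGB1 over 28 OMMs with all values (circles, red for an adjusted p under 0.05) and after the first component was removed (diamonds, filled for an adjusted p under 0.05); right, 12 pairs with ITGB1 within its 18 lower (squares) and 10 upper OMMs (triangles). LAMA4–LAMC1, LAMA4–LAMB1 and ITGAV–ITGB5 have a filled diamond on the left, where the pairs with LAMA2 hold the 4 OMMs above its gap, and on the right no square lies above 0.33.

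Which cell types the chains moved with was described with markers of 8 cell types, each chain against the types known to use it. Of 43 relations, 15 had an adjusted p under 0.05, all with a positive r, and 5 kept it after the first component was removed. They were LAMA2 with fibroblasts, LAMA4 with endothelial cells, ITGB4 with oral epithelium and with Schwann cells, and ITGA7 with skeletal muscle. LAMA2 with fibroblast markers (11 of 11 measured) had r = 0.67 among the 24 OMMs below its gap (unadjusted permutation p = 0.00055), and -0.36 within cross breed OMMs (n = 7). The 4 OMMs above the gap are too few for a value of their own. With the markers of skeletal muscle and of Schwann cells, the tissues in which LAMA2 is best known, r was 0.32 and 0.32 among the 24 (unadjusted permutation p = 0.126 and 0.122).

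LAMA4 with endothelial markers had r = 0.61 (adjusted p = 0.0053, rho = 0.59, rho adjusted p = 0.0119), 0.88, 0.33 and 0.64 within Golden Retriever, other purebred and Labrador Retriever, and cross breed OMMs, and 0.64 after the first component was removed. Without the 2 farthest OMMs it was 0.47 (adjusted p = 0.0710). ITGA1, a collagen receptor of vessels and stroma, had r = 0.54 with endothelial markers (adjusted p = 0.0123, rho = 0.65, rho adjusted p = 0.00602) and 0.61 without the 2 farthest OMMs, and 0.46 to 0.58 within the breed classes. LAMB1 and LAMC1 had 0.47 and 0.50 with the same markers (adjusted p = 0.0357 and 0.0237, rho = 0.33 and 0.40), and LAMB1 had 0.18 without the 2 farthest OMMs.

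ITGB4 and ITGA6, the chains of the hemidesmosome, had r = 0.70 and 0.63 with markers of oral epithelium (adjusted p = 0.0043 and 0.00559, rho = 0.46 and 0.36). Without the 2 OMMs farthest from each chain's median these were 0.34 and 0.45, with adjusted p-values of 0.209 and 0.0710, so both rest on those OMMs. The highest mean of the epithelial list, 4.08, was that of the Golden Retriever M OMM of replicate 15, which also had the highest ITGA6 (4.72) and ITGB4 (3.23) values of the 28. LAMA3 and LAMB3 had r = 0.26 and -0.30 with epithelial markers, with adjusted p-values of 0.272 and 0.207. ITGA7 with skeletal muscle markers had r = 0.67 (adjusted p = 0.0124, rho = 0.19), but 0.048 without the 2 farthest OMMs. The highest value of ITGA7, 2.52, was in the Great Dane NM OMM, whose muscle marker mean of 4.86 was the highest of the 28.

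ITGAV had r = 0.61 with pigment cell markers (adjusted p = 0.00559, rho = 0.46, rho adjusted p = 0.071) and 0.57 with fibroblast markers (adjusted p = 0.0123, rho = 0.61). After the first component was removed, r was 0.31 and 0.13. With pigment cell markers r was 0.50 without the 2 farthest OMMs (adjusted p = 0.0543) and -0.35 within cross breed OMMs. Of the leukocyte integrins only ITGA4 passed with leukocyte markers (r = 0.45, adjusted p = 0.0421, rho = 0.49, rho adjusted p = 0.0621). ITGA4 had r = 0.38 without the 2 farthest OMMs (adjusted p = 0.142) and 0.11 after the first component was removed. ITGAL, ITGAM, ITGAX, ITGAD, ITGB7 and ITGAE had r from -0.36 to 0.31 with these markers and adjusted p-values from 0.126 to 0.848. Other relations that passed were ITGB5 (0.53) and ITGB1 (given within its sets as 0.05 and 0.21) with fibroblasts, ITGA9 with pigment cells (0.55) and ITGB4 with Schwann cells (0.47, adjusted p = 0.0469). The last had rho = 0.30 (adjusted p = 0.239) and 0.26 without the 2 farthest OMMs (adjusted p = 0.396), so it rests on those OMMs. ITGA9 with pigment cells also had rho = 0.30 (adjusted p = 0.239), and r = 0.48 without the 2 farthest OMMs (adjusted p = 0.0645). Its r was 0.72, 0.14 and -0.18 within Golden Retriever, other purebred and Labrador Retriever, and cross breed OMMs.

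**Figure D5:**
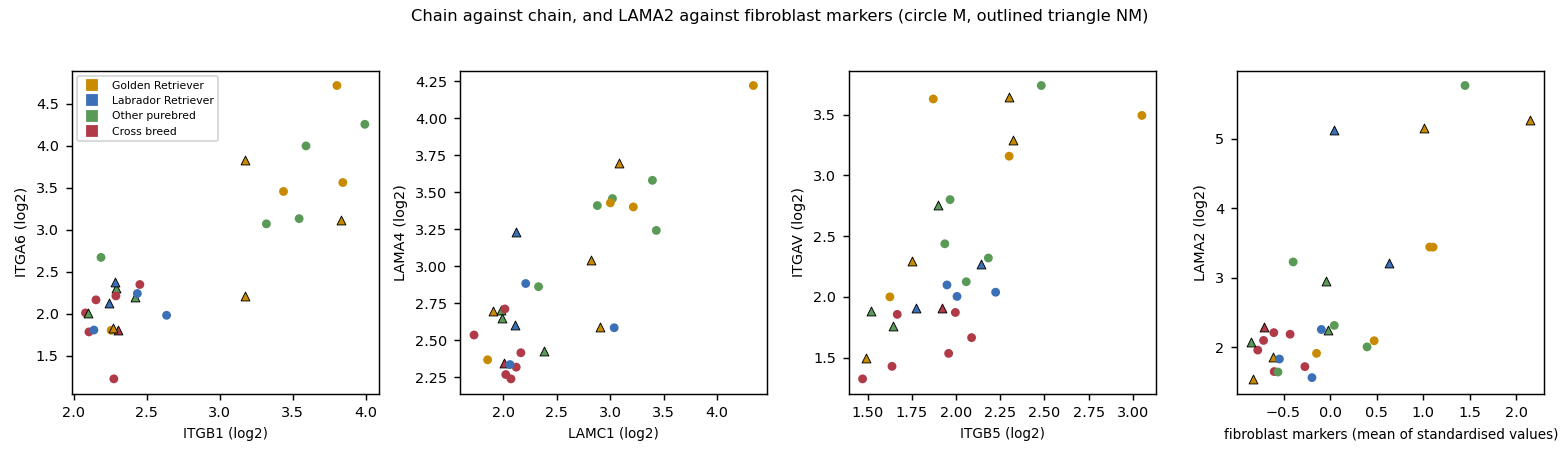
Each point is 1 of 28 OMMs (circle M, outlined triangle NM, colour for breed class): ITGA6 against ITGB1, LAMA4 against LAMC1 and ITGAV against ITGB5 in log2 values, and LAMA2 in log2 values against the mean of standardised fibroblast markers. The first panel shows the gap of ITGB1 between 2.64 and 3.17, and in the last panel 4 OMMs with LAMA2 above 5 stand over the rest.

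Genes that work with the chains were read from 5 lists, of which 77 of 83 genes were measured. Between M and NM OMMs 2 of the 77 had an unadjusted p under 0.05 by limma and by the methods' t-test, at the background of 2.55% given above, and none had an adjusted one. They were ACTN1, an actinin that ties integrins to actin filaments, at 2.33 ± 0.37 (SD) over the 18 M and 1.92 ± 0.30 over the 10 NM OMMs (difference 0.40 ± 0.13 SE, limma p = 0.0052), and THBS1, a matrix glycoprotein bound by ITGAV and ITGA3 receptors, at 2.21 ± 0.62 and 1.78 ± 0.14 (0.42 ± 0.19, p = 0.0378). Both were higher in M OMMs. Of the 30 adaptors and kinases measured 1 was higher and none lower, and the median difference was 0.095. FLNA, RAP1B and TLN2, the next adaptors by p, differed by 0.36, 0.50 and 0.095 with unadjusted p from 0.0874 to 0.0974.

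In the 21 matrix ligands the median difference was 0.030 and COL4A1, FGG and MFGE8 differed by 0.12, -0.065 and 0.14. The 14 basement membrane partners and other laminin receptors had a median of 0.016, with AGRN, a proteoglycan that binds laminin, at 0.30 ± 0.16 (p = 0.0749) and HSPG2, BCAM and COL4A4 at 0.075, 0.11 and -0.079. Of the surface ligands of leukocyte integrins 5 of 10 were measured (median -0.045), and VCAM1, the ligand of ITGA4, differed by -0.045 ± 0.092. CDH1, F11R and JAM3 differed by 0.078, -0.053 and -0.063. The 7 genes of latent TGF-beta, which ITGAV receptors release, had a median of 0.023, with NRROS, LRRC32, TGFB3 and TGFB2 at -0.16, 0.10, 0.096 and 0.096. No gene of these 4 lists other than THBS1 had an unadjusted p under 0.05.

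Between cross breed and purebred OMMs 12 of the 77 genes passed at an adjusted p under 0.05, at the background of 19.4%. Of the adaptors 5 were lower, FLNA (-0.63), PTK2 (-0.56), FERMT2 (-0.41), RAP1A (-0.82) and RAP1B (-0.87), and 2 higher, SHARPIN (0.60), an inhibitor of integrin activation, and PARVG (0.25). Of the ligands FN1 (-1.08), FBN1 (-1.33) and THBS1 (-0.66) were lower and none higher. RPSA, a laminin receptor that is also a ribosomal protein, was lower (-2.15), and COL18A1 was higher (0.38). In Golden Retriever OMMs 1 of the 77 passed, LTBP3, which holds latent TGF-beta in the matrix, and it was lower (-0.25, adjusted p = 0.0472), at the background of 1.45% higher and 1.09% lower given above.

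Some members are neighbours in the genome, by the gene order of the RefSeq assembly UU_Cfam_GSD_1.0, which names all 35 chains. LAMB4 and LAMB1 lie next to each other with no protein-coding gene between and had r = -0.26 across OMMs. ITGAX and ITGAM are also adjacent (r = -0.007), ITGAD and ITGAX have 1 gene between them (r = -0.07), and ITGA2 and ITGA1 have 1 (r = 0.39). These correlations are descriptions over 28 OMMs, with no test. ITGA11 has a second Transcript cluster, which had r = 0.22 with the one read and a difference of -0.02 between M and NM OMMs, against 0.10 for the first.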

How the data were processed

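Gene expression was measured with the Canine Gene 1.1 ST array in FFPE biopsies. Arrays with outlying quality metrics were excluded by the authors, who ran the Affymetrix Expression Console 1.3 on the rest, and the deposited values are log2 signals of the RMA algorithm, quantile normalised across arrays and summarised per Transcript cluster. The genome build is not given in the sources used here, so no coordinates are printed. Gene symbols came from the array's platform annotation, in which 16878 Transcript clusters have 1 symbol, 289 several and 15224 none. All 32391 Transcript clusters were tested, since the study's detection filter needs exon-level values not used here.

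Differences between M and NM OMMs were tested with limma 3.58.1 (R 4.3.3), two-sided, with Benjamini-Hochberg adjustment over all Transcript clusters and a threshold of 0.05. Breed comparisons had metastatic status in the model. Correlations used permutation tests with 100000 resamples in Python 3.11.15 (numpy 2.4.6, scipy 1.17.1), and the smallest p these can give is 1e-05. Marker scores are means of standardised values. ITGB1 and LAMA2 were split at a gap of over 25% of their range with 4 or more OMMs on each side. The scripts were tested on simulated data. The members, lists, pairs and tests were chosen with earlier results of these data known. Values over groups are given for chains with a mean above 2 or that passed a test, and for up to 4 genes of each pathway list by smallest p. The alternatives were a trend and robust fit, array weights, 2 normalisations, a filter on dim Transcript clusters, the most variable Transcript cluster per gene, the first component, breed and replicate number as blocks, leaving out cross breed OMMs, leaving status out of the model, rank correlation, centring within breed class or status, the methods' t-test and leaving out each OMM. Comparisons within M or NM OMMs and the split at gaps were added after seeing the data.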

Additional observations from a re-analysis of the deposited data

Results flagged for a closer look

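Each chain was searched for OMMs far from the rest of their group, over the NM, Golden Retriever, cross breed and Labrador Retriever groups. Of 140 groups tested 15 held such an OMM, where chance would give about 1 in 20, or 7. The Golden Retriever NM OMM of replicate 3 stood out in 3 chains: ITGA9, a receptor chain for tenascin, at 3.27 against 1.59 to 2.17 in the other NM OMMs and to 2.19 in the other Golden Retriever OMMs, ITGAM, a chain of myeloid cells, at 2.47 against 1.21 to 1.51, and ITGB4 at 2.79 against 1.14 to 1.87. This OMM also had the highest values of the 28 for the epithelial markers DSP, DSG1, DSG3, DSC3 and PERP. So it did for the pigment cell markers MITF, SLC45A2 and OCA2 and the platelet marker PPBP. The other epithelial markers, KRT5, KRT13 and KRT4 among them, were highest in other OMMs. The first component (89.2) and the share above 4 (6.40%) were also highest in this OMM.

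The Labrador Retriever NM OMM of replicate 4 was high for ITGB8 (2.04 against 1.31 to 1.55 in the other NM OMMs) and LAMC3 (2.38 against 1.51 to 1.82), and the Golden Retriever NM OMM of replicate 2 was high for ITGA8 (1.81 against 1.05 to 1.38). Among Golden Retriever OMMs the M OMM of replicate 15 was high for LAMB1 (3.33 against 1.69 to 2.29) and that of replicate 14 for LAMB3 (2.27 against 1.69 to 1.92).

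Among Labrador Retriever OMMs the M OMM of replicate 5 was high for LAMC1 (3.04 against 2.06 to 2.21) and low for ITGA8 (0.92 against 1.22 to 1.33), the M OMM of replicate 7 was high for LAMA3 (2.39 against 1.53 to 1.77) and the NM OMM of replicate 5 low for ITGA4 (1.14 against 1.296 to 1.337). Among cross breed OMMs the M OMM of replicate 17 was high for ITGA5 (1.86 against 1.42 to 1.55) and that of replicate 3 low for LAMC1 (1.73 against 2.01 to 2.16).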

How the results depend on the processing

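No alternative gave a chain an adjusted p under 0.05 between M and NM OMMs. At an unadjusted p under 0.05 there was 1 chain with array weights, quantile normalisation or median centring (ITGB3 each time), without cross breed OMMs (LAMC1, 0.53) and with breed as a fixed block (LAMA2, -1.10), and 0 to 2 with 1 OMM left out. Fits with breed as a fixed block used only the 20 OMMs of breeds found in both groups. The pathway count of 2 was 6 with the first component, 7 without cross breed OMMs, 5 with breed as a random block, 7 with breed as a fixed block and 1 to 3 with 1 OMM left out. The near-zero ITGAV difference changed sign with array weights (0.0075), without cross breed OMMs (0.29), with breed as a random (0.12) or fixed block (0.12) and with 1 OMM left out (-0.11 to 0.13), as did ITGAX without cross breed OMMs (0.030) and with breed as a fixed block (0.028), LAMA1 without cross breed OMMs (-0.023), with breed as a random block (-0.0025) and with 1 OMM left out (-0.0042 to 0.040), and LAMA5 at its most variable Transcript cluster (-0.093). The cause was not tested. Replicate numbers occur in both groups, but same-numbered OMMs had r of -0.41 to 0.12 over 10 pairs and do not pair. With the number as a block, ITGAV was 0.0029 and LAMA1 -0.011, and no call changed.

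Golden Retriever calls went from 1 to 9 with array weights, 3 with the filter on dim Transcript clusters, and 0 with the first component, without cross breed OMMs, without status in the model, and within M or within NM OMMs, and ran from 0 to 7 with 1 OMM left out. Cross breed calls went from 9 to 0 with the first component, where ITGAV (0.12), ITGA6 (0.27) and ITGB1 (0.17) reversed and ITGA3 had 0.33 against 0.38, 4 without status, 4 within M OMMs, and 3 (without the cross breed M OMM of replicate 17) to 9 with 1 OMM left out. Partner pairs went from 12 to 4 on residuals after the first component. Marker relations went from 15 to 5 on residuals, 5 by Spearman, 9 centred within breed class, 6 without cross breed OMMs and 7 without the 2 farthest OMMs. Means near the median of all Transcript clusters limit what the dimmer chains can show.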
